A study of Vitis vinifera with 165 samples.

Results

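The 10 gene models described here belong to the last steps of anthocyanin formation and were followed through ripening of Pinot noir berries, in 3 seasons and at 2 levels of cluster thinning. They were taken by ID from the 29971 gene models of the deposited expression table: 3 MYB regulators, 4 enzymes that decorate the pigment and 3 genes of its transport into the vacuole. All 10 passed the filter on low values that left 20460 gene models for testing. The names used here are those given with the list of IDs. The table itself holds IDs only, so no coordinates, exons or sequences are given, and the tissue could not be checked against its own markers.

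The fruit came from Pinot noir (Vitis vinifera) vines of clone FPS 23 on the rootstock Freedom, and each library was made from the ground pericarp, skin and flesh together, of 60 berries from 6 clusters. Vines had 75% of their clusters removed after fruit set (84 libraries) or 50% (81 libraries), which left 1 cluster on every other shoot and 1 on every shoot. Both levels are thinned, and unthinned vines were not analysed here. The 75% level had 24 libraries in 2012, 27 in 2013 and 33 in 2014, and the 50% level had 24, 27 and 30. Every season, thinning level and sampling day had 3 libraries, and 26 season-days were sampled at both levels. Days are counted from veraison, the turn to softening and colour. The design asks how the strength of thinning changes ripening.

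Levels are given as RPKM, a read count scaled to gene length and library size, so they can be compared between genes. The total RPKM of a library lay between 876732 and 1405120, and read depth is unknown. An exact 0 can be a failed estimate, since 96 of 5842 gene models with a median above 20 RPKM are at 0 in some library, and it is called listed at 0. The second 75% library of day 0 of 2012 stood apart from the others of its group (mean r of 0.916), as did the 50% libraries of day -18 of 2012 (lowest 0.940), and results that change without them are marked. Changes are differences of log2(RPKM + 1) ± SE, which understate the changes of genes with low levels. The p-values of these changes come from limma and are adjusted over all 20460 gene models. A stage or season change was called at an adjusted p below 0.05 and a log2 change of at least 1 in size, and a thinning difference at an adjusted p below 0.05. Nothing says that the 3 libraries of a group came from separate vineyard blocks, so the p-values measure the spread between these pools. Skin and flesh were ground together, so fewer pigmented cells and less RNA per cell cannot be told apart.

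Anthocyanins colour the skin of red grapes and are made by the flavonoid pathway. MYBA1 and MYBA2 are MYB transcription factors that switch on UFGT, the glucosyltransferase that makes the stable pigment, and white grapes carry forms of both that do not work. Anthocyanin O-methyltransferases (AOMT) add methyl groups, the acyltransferase 3AT adds acyl groups, and the glutathione S-transferase GST4 and MATE transporters (anthoMATE) carry pigment into the vacuole. Pinot noir is known for pigments that are not acylated.

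Between day 21 and the green berry, 9 of the 10 gene models rose and 0 fell. The green stage was day -18 in 2012 and day -14 in 2013 and 2014. Of all gene models tested, 29.9% were called in the same comparison, 7.66% higher and 22.3% lower. The median change was 5.34 over the 10 gene models and -0.30 over all gene models. In each season taken alone 9 of 10 rose, against 7.92% of all gene models in 2012, 7.68% in 2013 and 8.43% in 2014. The 10 were chosen with earlier results of these data known, so the shares describe the set and do not test it. None of the 9 overlapped between the 18 libraries of day 21 and the 18 green libraries. How many of all gene models also did not overlap was not counted, here or for later comparisons. The gene model that did not rise, anthoMATE VIT_16s0050g00930, was at -0.12 ± 0.05 (adjusted p = 0.0114), below the size set for a call. After quantile normalization, which moved the median of all gene models to 0.06, its value was 0.16.

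The 3 MYB regulators were nearly silent in green berries. MYBA1 (VIT_02s0033g00410) on day 21 of 2012 had 34.6, 21.7 and 31.5 RPKM at 75% thinning and 38.7, 26.5 and 38.6 RPKM at 50%. On day -18 of that season it had 0.203, 0.0655 and 0 RPKM at 75% and 0.00423, 0 and 0.0658 RPKM at 50%. All day 21 libraries lay above all green ones. In 2014, day 21 held 12.97, 15.4 and 13.2 RPKM at 75% and 12.98, 16.0 and 15.5 RPKM at 50%, and all 6 libraries of day -14 were listed at 0. Over the 3 seasons the change of MYBA1, whose activity is tied to berry colour in many cultivars, was 4.29 ± 0.16 (adjusted p = 3.76e-51).

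MYBA2 (VIT_02s0033g00390) reached 84.1 ± 20.4 RPKM on day 21 (SD, n = 18), and its 18 green libraries ran from 0 to 1.36 RPKM with 10 listed at 0. Its change was 6.21 ± 0.18 (adjusted p = 1.82e-60). MYBA3 (VIT_02s0033g00450), a close relative of the other two, had 57.0 ± 19.0 RPKM on day 21 (SD, n = 18) and 0 to 2.80 RPKM in green berries, a change of 5.42 ± 0.17 (adjusted p = 1.74e-56). Per length, MYBA1 was thus the lowest of the 3 regulators on day 21, at 21.3 ± 8.74 RPKM (SD, n = 18). The IDs of these gene models lie close together, and reads shared between near-identical copies could have been divided among them, so the split between MYBA1, MYBA2 and MYBA3 is uncertain.

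**Figure D1:**
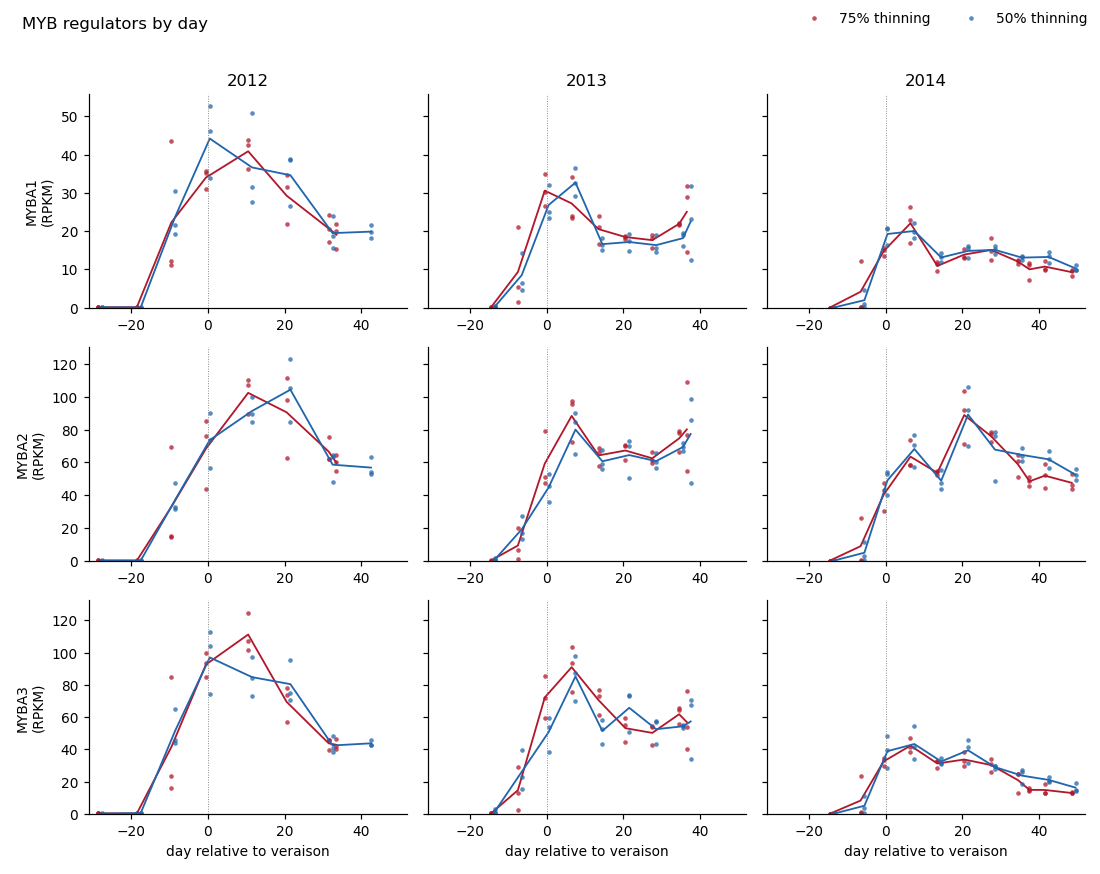
RPKM of MYBA1, MYBA2 and MYBA3 (top to bottom) against the day relative to veraison in 2012, 2013 and 2014 (left to right). Points are single libraries, lines join the means of 3 libraries, red is 75% thinning and blue is 50% thinning. All 3 are near 0 in green berries, and MYBA1 and MYBA3 are lower in 2014 than in 2012 on day 21.

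UFGT (VIT_16s0039g02230), the glucosyltransferase, was also at or near 0 in green berries. On day 21 of 2014 it had 68.1, 108 and 67.5 RPKM at 75% thinning and 52.5, 86.4 and 84.6 RPKM at 50%. On day -14 of that season 5 of the 6 libraries were listed at 0 and the other held 0.0276 RPKM. Its change over the seasons was 6.21 ± 0.18 (adjusted p = 4.79e-60).

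The methyltransferase gene models differed in level. AOMT VIT_01s0010g03510 had 50.3 ± 13.1 RPKM on day 21 and 0.315 ± 0.236 RPKM in green berries (SD, n = 18 each), a change of 5.26 ± 0.18 (adjusted p = 1.18e-52). AOMT VIT_01s0010g03490 had 5.55 ± 2.68 RPKM on day 21 (SD, n = 18) and 0 to 0.738 RPKM in green berries, a change of 2.27 ± 0.12 (adjusted p = 8.32e-38). Reads shared between this pair could also have been divided. 3AT (VIT_03s0017g00870), the acyltransferase, was the lowest of the 10 gene models on day 21, at 2.80 ± 0.964 RPKM (SD, n = 18), with 0 to 0.239 RPKM in green berries. It still rose by 1.75 ± 0.10 (adjusted p = 3.32e-33).

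With a pseudocount of 0.1 in place of 1, the same comparison gave 7.06 for MYBA1, 3.94 for AOMT VIT_01s0010g03490 and 3.88 for 3AT. These sizes therefore depend on the pseudocount, and the 9 calls did not.

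**Figure D2:**
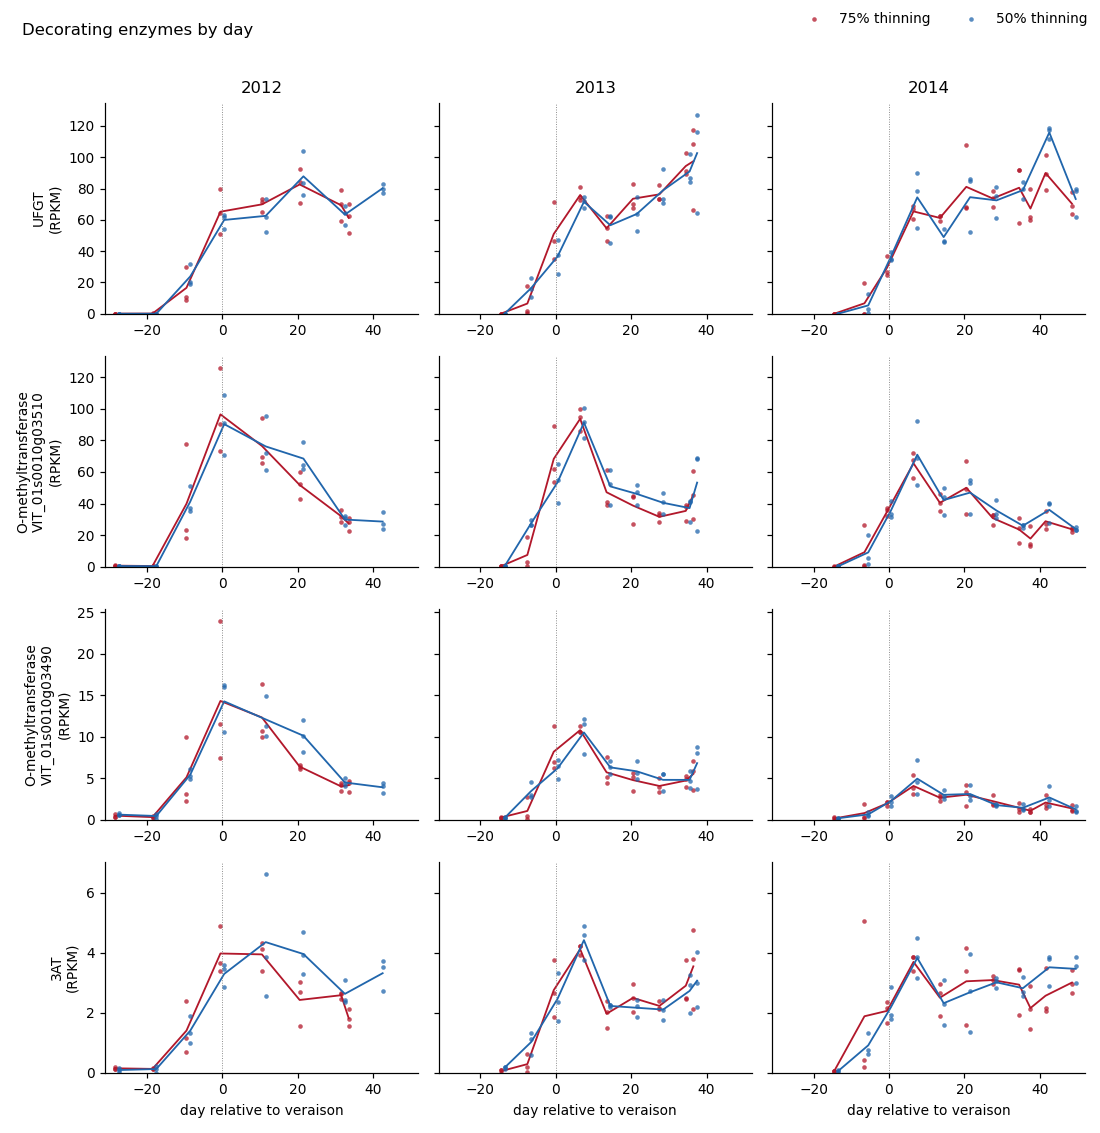
RPKM of UFGT, the methyltransferase gene models and 3AT (top to bottom) against the day relative to veraison in each season, with points for libraries, lines for means of 3 libraries, red for 75% and blue for 50% thinning. UFGT stays high to the last days, while the methyltransferases are highest on day 0 or 7 and lower after it.

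GST4 (VIT_04s0079g00690) had the highest level and the largest change of the 10. On day 21 it ranked 87th of the 29971 gene models by mean RPKM, with 946 ± 142 RPKM (SD, n = 18). In 2012 day 21 held 1076, 992 and 1104 RPKM at 75% thinning and 1029, 1204 and 1071 RPKM at 50%. On day -18 it had 1.36, 1.46 and 0.118 RPKM at 75% and 0.313, 0 and 0.133 RPKM at 50%. The change was 9.52 ± 0.27 (adjusted p = 3.82e-61).

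The anthoMATE gene models, named as vacuolar transporters of anthocyanin, differed from each other. AnthoMATE VIT_16s0050g00910 had 264 ± 34.5 RPKM on day 21 and 3.14 ± 0.931 RPKM in green berries (SD, n = 18 each), a change of 6.02 ± 0.17 (adjusted p = 8.13e-61). AnthoMATE VIT_16s0050g00930 had 39.8 ± 4.77 RPKM on day 21 and 43.6 ± 6.38 RPKM in green berries (SD, n = 18 each), and its libraries overlapped. The gene model whose ID lies between them, VIT_16s0050g00920, was listed at 0 in 122 of 165 libraries.

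**Figure D3:**
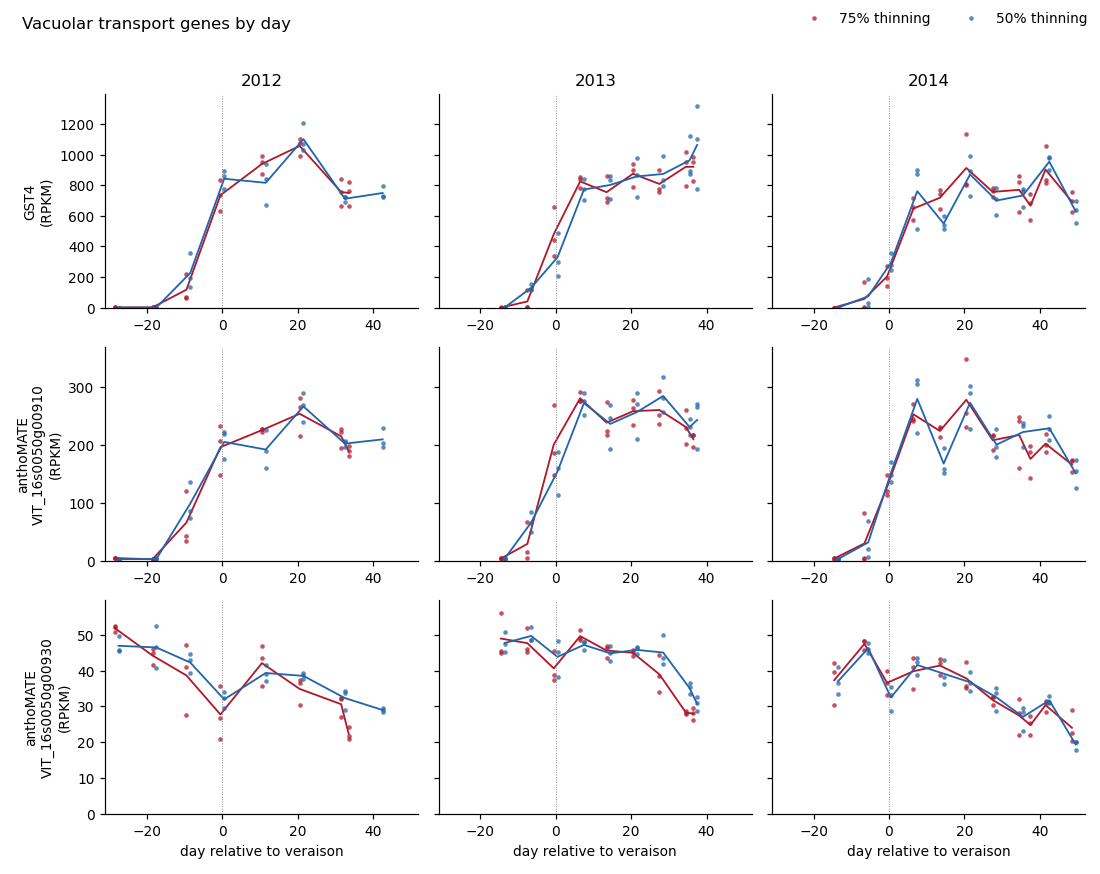
RPKM of GST4, anthoMATE VIT_16s0050g00910 and anthoMATE VIT_16s0050g00930 (top to bottom) against the day relative to veraison in each season, with points for libraries, lines for means of 3 libraries, red for 75% and blue for 50% thinning. GST4 and anthoMATE VIT_16s0050g00910 are near 0 in green berries and high after veraison, and anthoMATE VIT_16s0050g00930 is already at 30.3 to 56.2 RPKM in the green libraries.

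The same 9 gene models were already higher at the veraison stage. From the green stage to the veraison stage (day 0 in 2012 and 2013 and day 7 in 2014, matched on labelled sugar content) 9 of 10 rose and anthoMATE VIT_16s0050g00930 did not, against 4.8% of all gene models. Their changes ran from 1.96 ± 0.10 for 3AT to 8.85 ± 0.27 for GST4. From the veraison stage to day 21, 0 of 10 passed both thresholds (9.75% of all gene models did, in either direction), while 8 had an unadjusted p below 0.05 in limma. The share of all gene models at that unadjusted cut was not counted, here or for later comparisons, so such counts are not shown to be unusual. Those 8 went both ways: MYBA1 was at -0.48 ± 0.16 (adjusted p = 0.00378) and AOMT VIT_01s0010g03490 at -0.49 ± 0.12 (adjusted p = 7.84e-05), while GST4 was at 0.67 ± 0.27 (adjusted p = 0.0234) and UFGT at 0.42 ± 0.18 (adjusted p = 0.0313). In 2013 alone GST4 passed, with 1.19 ± 0.47 (adjusted p = 0.023), against 4.91% of all gene models that rose.

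The gene models did not all reach their day 21 level at the same time. On day -9 of 2012, MYBA1 stood at 72.1% of its day 21 mean, AOMT VIT_01s0010g03510 at 67.4%, UFGT at 23.7% and GST4 at 15.9%. On day -7 of 2013 the figures were 50.0% for MYBA1, 16.7% for UFGT and 9.74% for GST4. On day 0 of 2014, MYBA1 was already at 118% of its day 21 mean, with UFGT at 42.3% and GST4 at 27.8%. In each case the regulator was nearer to its later level than the glucosyltransferase, and GST4 was the farthest from it. MYBA1 was past its highest mean by day 21, and UFGT and GST4 were not. That highest mean was 122.4% of day 21 in 2012, 168.4% in 2013 and 146.7% in 2014. The fall of MYBA1 thus enters these figures, which are no plain order of induction.

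The same order is described as a ratio to MYBA1 within each library, on the first day of each season on which all 6 libraries held over 10 RPKM of MYBA1, against day 21. That day was day -9 in 2012 and day 0 in 2013 and 2014. It was chosen on MYBA1 after the values were seen, so a high MYBA1 is part of the choice and no test is given. The log2 ratio, a difference of log2(RPKM + 1), of GST4 to MYBA1 was lower on the early day by 1.84 to 2.32 in the 3 seasons, that of UFGT by 1.35 to 1.57, that of anthoMATE VIT_16s0050g00910 by 1.19 to 1.23 and that of MYBA2 by 1.02 to 1.21. The ratio of MYBA3 was lower by 0.26 to 0.62, and that of AOMT VIT_01s0010g03510 by 0.11 to 0.63. The fall of MYBA1 by day 21 enters all of these ratios.

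**Figure D4:**
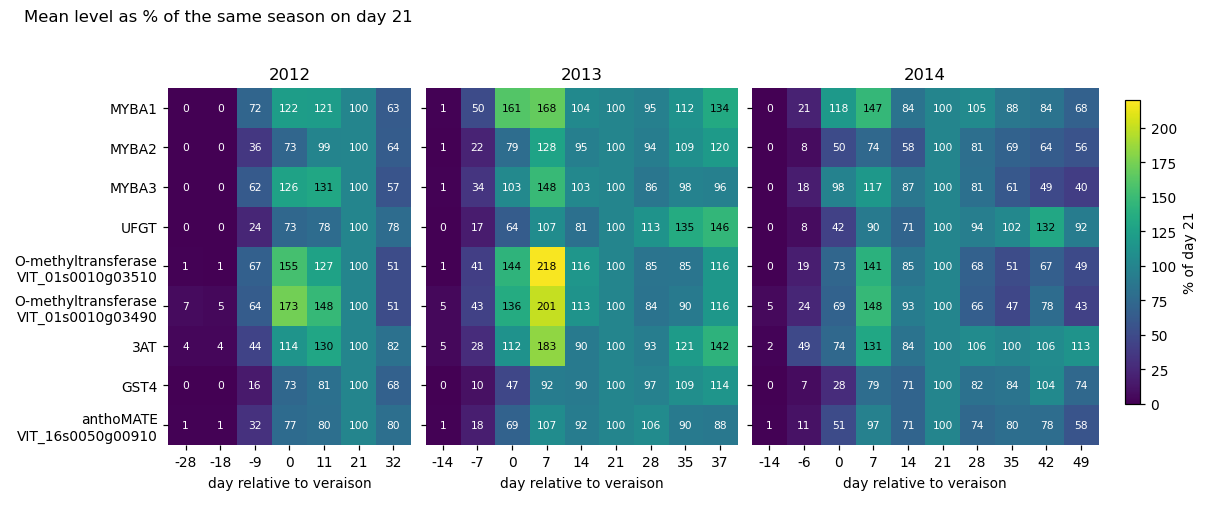
Mean RPKM of each rising gene model as a percentage of its own mean on day 21 of the same season (n = 6 libraries per cell, both thinning levels), by day relative to veraison. On day 0 MYBA1 is at 118% to 161% and GST4 at 27.8% to 73.1%, and in 2013 AOMT VIT_01s0010g03510 stands at 218% on day 7.

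After veraison both methyltransferases fell, while UFGT and GST4 had values above 0 when averaged over the seasons. Between the late stage (day 32 in 2012 and day 35 in 2013 and 2014) and the veraison stage, AOMT VIT_01s0010g03510 fell by 1.23 ± 0.18 (adjusted p = 2e-09), with 30.6 ± 6.75 RPKM at the late stage and 74.1 ± 21.8 RPKM at the veraison stage (SD, n = 18 each). AOMT VIT_01s0010g03490 fell by 1.03 ± 0.12 (adjusted p = 2.01e-14). These were the only 2 of 10 called, against 16.7% of all gene models in either direction and 10.6% lower. The value of AOMT VIT_01s0010g03490 was -0.88 after quantile normalization, -0.96 without the second 75% library of day 0 of 2012 and -0.97 without replicate 3, each of which left 1 of 10 called. MYBA1, at -0.70 ± 0.16 (adjusted p = 2.61e-05), and MYBA3, at -0.70 ± 0.17 (adjusted p = 0.000157), did not reach the size set for a call. MYBA2 was at 0.09 ± 0.18 (adjusted p = 0.665), UFGT at 0.47 ± 0.18 (adjusted p = 0.0149) and GST4 at 0.44 ± 0.27 (adjusted p = 0.13). This comparison was added after the values were seen.

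Season by season different gene models passed, and the difference between seasons was not tested here. In 2012 MYBA3 (-1.11 ± 0.30, adjusted p = 0.000567) and both methyltransferases fell, against 9.56% of all gene models, and in 2014 both methyltransferases did, against 10.7%. In 2013 it was UFGT and GST4 that rose, against 7.81% of all gene models. UFGT rose by 1.13 ± 0.32 (adjusted p = 0.000901), with 84.2 to 103 RPKM at the late stage and 25.2 to 71.4 RPKM at the veraison stage. GST4 rose by 1.31 ± 0.47 (adjusted p = 0.0104), with 796 to 1122 RPKM at the late stage and 205 to 659 RPKM at the veraison stage. Neither gene overlapped between those stages. The sugar content of the veraison stage was 12.3 ± 1.28 g per 100 ml in 2012, 10.45 ± 0.765 in 2013 and 12.1 ± 0.745 in 2014 (SD, n = 6), and its part in these values was not tested.

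As a ratio to UFGT within each library, AOMT VIT_01s0010g03510 was lower at the late stage than at the veraison stage by 1.62 to 1.84 in the 3 seasons, MYBA1 by 0.88 to 1.63 and MYBA3 by 1.13 to 1.20, each with p = 0.00216 in every season, the smallest that an exact two-sided permutation test of 6 against 6 libraries gives. These ratios were chosen after the values were seen, and the p-values of the 27 tested are unadjusted. They describe a pattern already seen and give no independent support for it. The ratio of GST4 to UFGT differed by -0.19 in 2012, 0.18 in 2013 and -0.08 in 2014, with p values of 0.0606, 0.0541 and 0.301 in the same exact permutation test. UFGT had its highest mean on day 21 of 2012 (85.2 ± 11.8 RPKM), day 37 of 2013 (100.0 ± 27.5 RPKM) and day 42 of 2014 (103 ± 16.1 RPKM), and GST4 had its highest mean on the same 3 days (SD, n = 6). MYBA1 had its highest mean on day 0 or day 7 in every season, and so did both methyltransferases.

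From day 21 to the late stage 0 of 10 gene models were called (1.85% of all gene models were), and 4 had an unadjusted p below 0.05 in limma. The transporter already present in green berries, anthoMATE VIT_16s0050g00930, was at -0.39 ± 0.05 (adjusted p = 2.46e-12), with 30.2 ± 3.93 RPKM at the late stage and 39.8 ± 4.77 RPKM on day 21 (SD, n = 18 each). AOMT VIT_01s0010g03510 was at -0.69 ± 0.18 (adjusted p = 0.000732), AOMT VIT_01s0010g03490 at -0.54 ± 0.12 (adjusted p = 2.42e-05) and MYBA3 at -0.50 ± 0.17 (adjusted p = 0.00896).

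Over all 26 season-days MYBA1 ran from 39.1 ± 8.39 RPKM on day 0 of 2012 to listed at 0 in all libraries of day -14 of 2014 (SD, n = 6). When the season-days were put in order of their means, only 2 of 25 neighbouring pairs differed by more than the larger SD of the pair for MYBA1, and 0 to 3 did for the other gene models. The order of neighbouring days is therefore mostly within the replicate spread.

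For the 9 rising gene models, libraries of one group differed more on the days of the first rise than from day 0 on. On day -9 of 2012, day -7 of 2013 and day -6 of 2014, the median SD of log2(RPKM + 1) within a group of 3 was 1.85 for GST4, 1.31 for UFGT and 1.11 for MYBA1, against 0.17 for GST4, 0.20 for UFGT and 0.15 for MYBA1 from day 0 on. AnthoMATE VIT_16s0050g00930 was the exception, with 0.0744 on those days and 0.101 from day 0 on. limma shares 1 estimate of a gene model's spread over all groups, so its p-values for the 9 are too small wherever these days enter. Between days from day 0 on, where the spread is smaller, its SEs and p-values for the 9 tend to be too large. A missed call there does not show that groups were alike. At 75% thinning on day -6 of 2014, GST4 had 0.246, 0.706 and 169 RPKM. MYBA1 had 0.0554, 0.208 and 12.1 RPKM in the same libraries, and UFGT had 0, 0.0824 and 19.9 RPKM. In all 6 groups of those days the 9 rising gene models were highest in 1 and the same library. The order of the 3 libraries by MYBA1 equalled their order by sugar content in 3 of the 6 groups.

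On day 0 of 2014 most of the gene models were higher than on day -6 at a like sugar label. Sugar was 1.73 ± 0.298 g per 100 ml on day 0 and 1.74 ± 0.176 on day -6 (SD, n = 6 each), a difference of -0.0133 (exact two-sided permutation test, p = 0.935). Between the same days 7 of the 10 gene models rose, against 3.05% of all gene models. MYBA1 had 13.6 to 20.9 RPKM on day 0 (median 15.9) and 0.0554 to 12.1 RPKM on day -6 (median 0.598), without overlap, and rose by 2.86 ± 0.27 (limma adjusted p = 1.44e-17; exact two-sided permutation test of 6 against 6 libraries, p = 0.00216). GST4 had 142 to 358 RPKM on day 0 (median 258) and 0.246 to 189 RPKM on day -6 (median 15.4), so its libraries overlapped, and it rose by 4.06 ± 0.47 (limma adjusted p = 4.24e-13; the same exact permutation test, p = 0.00866). The exact p-values are unadjusted over the 10 gene models tested, and the limma ones are too small, since day -6 is a first-rise day. By mean expression over the gene models tested, among the groups of the other 2 seasons, both day 0 groups of 2014 were most like a day 0 group of 2013 (r of 0.981 at 75% and 0.983 at 50%), where sugar averaged 10.45 g per 100 ml. Both day 7 groups of 2014, at 12.1 g per 100 ml, were most like the same group (r of 0.9804 at 75% and 0.9835 at 50%). This likeness therefore does not separate day 0 from day 7 of 2014. Whether the sugar label of day 0 of 2014 is right was not tested.

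Between seasons, 0 of 10 gene models were called in 2013 against 2012 at any of the 4 points compared (4.43% of all gene models were on day 0, 1.78% on day 21 and 1.03% at the late stage). Counts at an unadjusted p below 0.05 in limma were 5 on day 0, which is also the veraison stage of both seasons, 3 on day 21 and 0 at the late stage. Without replicate 3, or after quantile normalization, 1 of 10 was called on day 0. The called differences were between 2014 and another season, and all were lower in 2014. On day 0 they were 5 of 10 against 2012 (7.17% of all gene models called, 3.23% lower): MYBA1, MYBA3, both methyltransferases and GST4, on a day with 1.73 g sugar per 100 ml in 2014 and 12.3 in 2012. Against 2012, 2 of 10 were called at the sugar-matched veraison stage (4.75% of all), 3 of 10 on day 21 (2.53% of all) and 1 of 10 at the late stage (2.52% of all). Against 2013, 1 of 10 was called on day 0 (1.98% of all), 0 at the veraison stage (2.23% of all), 0 on day 21 (2.63% of all) and 2 at the late stage (2.15% of all), and the counts of 0 had 4 and 3 at an unadjusted p below 0.05 in limma.

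AOMT VIT_01s0010g03490 was lower in 2014 than in 2012 at each of these points. On day 21 it had 1.60 to 4.16 RPKM in 2014 (median 3.06) and 6.17 to 12.1 RPKM in 2012 (median 7.43), without overlap, a difference of -1.20 ± 0.20 (adjusted p = 8.02e-07). At the late stage it had 0.918 to 2.08 RPKM in 2014 and 3.50 to 4.99 RPKM in 2012 (-1.12 ± 0.20, adjusted p = 3.93e-06), a call that was lost after quantile normalization. Against 2013 the late difference was -1.25 ± 0.20 (adjusted p = 2.45e-07). On day 21 it was -0.66 ± 0.20 against 2013 (adjusted p = 0.00966), below the size set for a call.

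MYBA1 on day 21 had 12.97 to 16.0 RPKM in 2014 and 21.7 to 38.7 RPKM in 2012, a difference of -1.08 ± 0.27 (adjusted p = 0.00124), and MYBA3 had 29.9 to 45.5 RPKM in 2014 and 56.9 to 95.3 RPKM in 2012 (-1.02 ± 0.30, adjusted p = 0.00709). Neither gene overlapped between these seasons, and without replicate 1 only 1 of the 3 calls of day 21 was left. At the veraison stage MYBA3 was at -1.13 ± 0.30 against 2012 (adjusted p = 0.000855), where 1 of the 2 calls was left after quantile normalization. It was also lower in 2014 than in 2013 at the late stage, with 12.9 to 27.0 RPKM in 2014 and 53.4 to 65.5 RPKM in 2013 (-1.38 ± 0.30, adjusted p = 0.00021). MYBA2 was not called, at 89.0 ± 15.5 RPKM on day 21 of 2014 and 97.5 ± 21.4 RPKM in 2012 (SD, n = 6 each, -0.12 ± 0.31, adjusted p = 0.851), and UFGT was at -0.16 ± 0.32 (adjusted p = 0.786) and GST4 at -0.29 ± 0.47 (adjusted p = 0.72). A difference that misses the threshold does not show that seasons were alike. The change between day 21 and the green stage was smaller in 2014 than in 2012 for MYBA1 (-1.0042 ± 0.38, adjusted p = 0.0316), the only 1 of 10 called, against 6.19% of all gene models. MYBA1 was at or near 0 in the green libraries of both seasons, so this value largely repeats its day 21 difference. For MYBA1 the call was lost with a pseudocount of 0.1, without any 1 of the 3 replicate numbers, and without the 50% replicates 1 and 2 of day -18 of 2012.

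Within a library of day 21, the ratio of MYBA2 to MYBA1 averaged 3.06 ± 0.302 in 2012, 3.70 ± 0.27 in 2013 and 6.19 ± 0.731 in 2014 (SD, n = 6). The ratio of AOMT VIT_01s0010g03510 to AOMT VIT_01s0010g03490 averaged 7.47 ± 1.31 in 2012, 8.03 ± 0.835 in 2013 and 16.4 ± 3.18 in 2014 (SD, n = 6). At both thinning levels these 2 ratios were highest in 2014, with 17.4 ± 3.25 at 75% and 15.4 ± 3.44 at 50% for the methyltransferases (SD, n = 3). The ratio of MYBA3 to MYBA1 was highest in 2013, at 2.39 ± 0.286 in 2012, 3.35 ± 0.626 in 2013 and 2.54 ± 0.224 in 2014, and that of anthoMATE VIT_16s0050g00910 to VIT_16s0050g00930 was 7.07 ± 0.530 in 2012, 5.66 ± 0.702 in 2013 and 7.33 ± 0.706 in 2014 (SD, n = 6). The ratios were described after the values were seen and were not tested. Reads shared between the MYBA copies or between the methyltransferases could have been divided, so the split within each ratio is uncertain. AOMT VIT_01s0010g03490 was also low on day 21 of 2014, at 1.60 to 4.16 RPKM.

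Over the 26 matched days 0 of 10 gene models differed between 75% and 50% thinning, against 2.9% of all gene models, and 2 had an unadjusted p below 0.05 in limma. The differences ran from -0.18 ± 0.13 for GST4 to -0.03 ± 0.02 for anthoMATE VIT_16s0050g00930. Taken season by season 0 of 10 were called in 2012 (1.01% of all), 0 in 2013 (0.0635% of all) and 0 in 2014 (0.152% of all), with 0, 3 and 0 at an unadjusted p below 0.05 in limma; without replicate 2, 1 of 10 was called in 2012. From day 0 to 14 the count was 0 (3.54% of all), with 0 at an unadjusted p below 0.05 in limma, and from day 21 to harvest it was 0 (5.04% of all), with 1. For the rising gene models limma's p-values tend to be too large on these days. The counts of 0 therefore do not show that the thinning levels were alike. From day 21 to harvest UFGT averaged 80.8 ± 15.0 RPKM at 75% and 82.0 ± 19.7 RPKM at 50% (SD, n = 33 each, 0.00 ± 0.15, adjusted p = 1), and GST4 averaged 852 ± 133 RPKM at 75% and 860 ± 180 RPKM at 50% (SD, n = 33 each).

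Before veraison GST4 was lower at 75% thinning by 0.94 ± 0.26 (adjusted p = 0.026), the only 1 of 10 called, against 2.03% of all gene models and 1.52% lower. Its 21 libraries at 75% ran from 0 to 219 RPKM (median 0.828) and its 21 libraries at 50% from 0 to 354 RPKM (median 0.6), so the groups overlapped. Another 6 gene models had an unadjusted p below 0.05 in limma, with values from -0.27 for AOMT VIT_01s0010g03490 to -0.585 for AOMT VIT_01s0010g03510. Leaving out any 1 of the first-rise days (day -9 in 2012, -7 in 2013 and -6 in 2014) left 0 of 10. GST4 then stood at -0.74 with the 2012 day left out, -0.37 with the 2013 one and -0.58 with the 2014 one. Without replicate 1 or replicate 2 the count was also 0, as it was on plot means (1 mean over the days for each thinning level and replicate number), and without replicate 3 it was 6. The p-value rests on the first-rise days, whose spread is larger than the pooled one.

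In 2013 alone 4 of 10 were lower at 75% before veraison, against 1.77% of all gene models and 2.37% in either direction: GST4 (-1.96 ± 0.47, adjusted p = 0.00629), AOMT VIT_01s0010g03510 (-1.29 ± 0.32, adjusted p = 0.00846), UFGT (-1.07 ± 0.32, adjusted p = 0.0459) and MYBA3 (-1.04 ± 0.30, adjusted p = 0.0374). Of the 26 single days, day -7 of that season was the only one with a call among the 10, where 4 of 10 were lower, against 0.0538% of all gene models and 0.0635% in either direction. The count before veraison of 2013 was 0 without day -7, 0 without replicate 1 or replicate 2, 0 on plot means, and 2 with sugar as a covariate or after quantile normalization. Without day -7, GST4 was at -0.25. On day -7 GST4 had 3.70, 0.9 and 115 RPKM at 75% thinning and 112, 121 and 154 RPKM at 50% (-3.67 ± 0.67, adjusted p = 0.00132). AOMT VIT_01s0010g03510 had 2.70, 0.662 and 19.0 RPKM at 75% and 26.2, 26.4 and 29.9 RPKM at 50%, without overlap (-2.52 ± 0.45, adjusted p = 0.00116). UFGT had 1.46, 0.309 and 17.8 RPKM at 75% and 15.9, 10.6 and 22.6 RPKM at 50% (-2.09 ± 0.45, adjusted p = 0.0189).

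AOMT VIT_01s0010g03490 had 0.415, 0.0770 and 2.69 RPKM at 75% and 2.79, 3.04 and 4.53 RPKM at 50% (-1.31 ± 0.28, adjusted p = 0.0189). In all 4 the replicate 3 library at 75% lay with or near the 50% libraries and the other two far below them. MYBA1 had 5.35, 1.497 and 21.0 RPKM at 75% and 6.51, 4.59 and 14.3 RPKM at 50%, so it overlapped (-0.29 ± 0.38, adjusted p = 1). Sugar was 2.98, 4.38 and 3.06 g per 100 ml in those libraries at 75% and 5.04, 4.24 and 4.07 at 50%, and the groups overlapped in it. Without replicate 1 or replicate 2 at 75%, 0 of 10 were called, without replicate 3 at 75%, 7 were, and without replicate 3 at 50%, 2 were. The limma p-values of this first-rise day are too small, and an exact test of 3 against 3 libraries cannot go below 0.1.

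**Figure D5:**
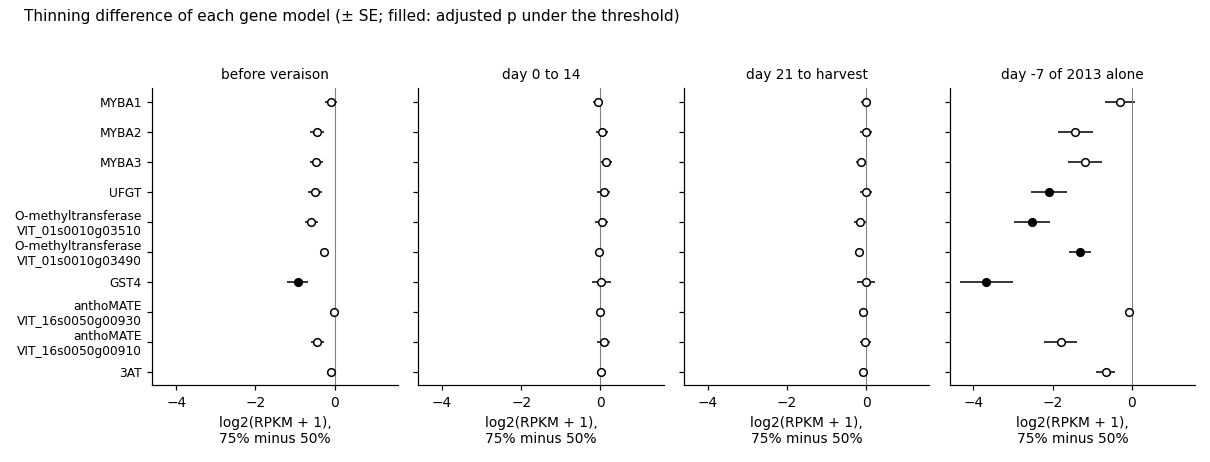
Difference in log2(RPKM + 1) between 75% and 50% thinning (75% minus 50%, points, with ± SE) for each gene model before veraison, from day 0 to 14, from day 21 to harvest, and on day -7 of 2013 alone. Filled points passed the adjusted p threshold: GST4 before veraison, and UFGT, both methyltransferases and GST4 on day -7 of 2013.

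The difference in thinning effect between phases was called for 0 of 10 gene models in any of the 3 pairs of phases, with 6, 2 and 0 at an unadjusted p below 0.05 in limma (5.73%, 3.55% and 0.557% of all gene models were called). A difference in thinning effect between the seasons was called for 0 of 10 in a limma F test (lowest adjusted p = 0.655, anthoMATE VIT_16s0050g00930, which alone had an unadjusted p below 0.05), against 0.0293% of all gene models.

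Other genes of the pathway were entered as lists of IDs, which neither the table nor the reference annotates, so their members are given by ID and by the list they were put in. These lists, too, were chosen with earlier results of these data known. Of 9 gene models listed as core flavonoid enzymes, 6 rose and 0 fell between day 21 and the green stage, with a median of 1.41, and 7.66% of all gene models rose and 22.3% fell in that comparison. Of 16 listed as hydroxylases of the B ring, which set how many hydroxyl groups the methyltransferases can act on, 13 were tested, 5 rose and 0 fell. On day 21 8 of those 13 were lower in 2014 than in 2012 (2.43% of all gene models were) and 8 were lower in 2014 than in 2013 (2.11% of all). Reads shared between near-identical copies could also have been divided within this list, so these 8 need not be separate results. Of 4 listed in the tannin and flavonol branches 2 fell, and of 11 tested from a list of other regulators 6 fell and 0 rose.

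The largest rises in these lists were those of VIT_05s0136g00260 (3.95 ± 0.17, a core enzyme ID, with 1046 ± 174 RPKM on day 21 and 75.2 ± 39.2 in green berries, SD, n = 18 each) and VIT_06s0009g03000 (3.03 ± 0.17, a hydroxylase ID). The largest falls were those of VIT_14s0006g01620 (-3.18 ± 0.06) and VIT_07s0005g01210 (-3.08 ± 0.08), both listed as other regulators. Before veraison the core enzyme IDs VIT_04s0023g03370 (-0.54 ± 0.14, adjusted p = 0.0173) and VIT_13s0067g02870 (-0.24 ± 0.07, adjusted p = 0.0328) and the tannin branch ID VIT_01s0011g02960 (-0.44 ± 0.11, adjusted p = 0.0135) were lower at 75% thinning. The regulator ID VIT_14s0006g01280 was higher (0.21 ± 0.05, adjusted p = 0.00219). No fits without a first-rise day or a replicate are given for the list IDs, and the call of GST4 in this comparison was lost without any 1 of those days. From day 0 to 14 the tannin branch IDs VIT_17s0000g04150 (0.59 ± 0.15, adjusted p = 0.0144) and VIT_00s0361g00040 (0.63 ± 0.17, adjusted p = 0.0183) and the regulator ID VIT_15s0046g00170 (0.45 ± 0.13, adjusted p = 0.0292) were higher at 75%, and VIT_07s0005g01210 was lower (-0.37 ± 0.07, adjusted p = 0.000927). The regulator ID VIT_08s0007g07230 was lower at 75% from day 21 to harvest (-0.21 ± 0.04, adjusted p = 0.00067) and over all matched days (-0.12 ± 0.03, adjusted p = 0.004).

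Across the 55 groups, the likeness of the gene models to each other varied. The group means of log2(RPKM + 1) of UFGT and GST4 had a Pearson r of 0.995, those of GST4 and anthoMATE VIT_16s0050g00910 also 0.995, and those of MYBA1 and MYBA3 0.988. MYBA1 and UFGT had 0.924. AOMT VIT_01s0010g03490 was less like the other rising gene models, with 0.727 to UFGT, 0.751 to GST4, 0.756 to anthoMATE VIT_16s0050g00910 and 0.762 to 3AT, and 0.902 to MYBA3. The r of anthoMATE VIT_16s0050g00930 with the other 9 lay between -0.49 and -0.05. These are descriptions over groups that share seasons and days, and any genes that are off in green berries and on later share much of such a pattern.

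Of 13319 other gene models with a group mean of at least 10 RPKM somewhere, VIT_02s0033g00380 was the most like MYBA2 (r = 0.996), UFGT (0.986), AOMT VIT_01s0010g03510 (0.967), GST4 (0.99) and anthoMATE VIT_16s0050g00910 (0.99). Its ID is next to that of MYBA2. It was listed at 0 in all 18 green libraries and had 119 ± 27.6 RPKM on day 21 (SD, n = 18), and reads shared with MYBA2 could have been divided between them. Next for MYBA2 came VIT_05s0020g04570 (0.988) and VIT_05s0094g00330 (0.986), for UFGT VIT_08s0056g01240 (0.986) and VIT_02s0033g01330 (0.982), and for GST4 VIT_05s0094g00330 (0.984) and VIT_11s0016g04920 (0.982). MYBA1 and MYBA3 were most like VIT_00s1389g00010 (r = 0.971 and 0.982), followed for MYBA1 by VIT_14s0066g01600 and VIT_01s0010g02030 (0.963 and 0.962). AOMT VIT_01s0010g03490 was most like VIT_00s0615g00010 (0.925), then VIT_00s1389g00010 (0.897) and VIT_06s0009g03010 (0.895), an ID of the hydroxylase list. Next for AOMT VIT_01s0010g03510 came VIT_14s0066g01600 and VIT_14s0081g00030 (0.965 each), for anthoMATE VIT_16s0050g00910 VIT_05s0020g04570 (0.984) and VIT_05s0094g00330 (0.982), and for MYBA3 VIT_14s0081g00030 (0.965) and VIT_06s0004g06770 (0.963). AnthoMATE VIT_16s0050g00930 was most like VIT_15s0046g00360 (0.874), with VIT_14s0060g01280 (0.863) and VIT_17s0000g09710 (0.841) after it, and 3AT, below the level set for this comparison, was left out.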

How the data were processed

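RNA of 165 grape pericarp libraries (TruSeq, non-directional) was sequenced by the authors, and 1 table of RPKM values per gene model was deposited. TopHat2 2.0.6 and Cufflinks 2.0.2 are named in the submitters' processing notes; their settings, the genome build and the read depth are not given in the sources used here. Non-directional reads cannot separate overlapping antisense genes.

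From the deposited RPKM values, log2(RPKM + 1) was fitted with limma 3.58.1 (trend) in R 4.3.3 to 55 groups of season, thinning and day, for the 20460 of 29971 gene models at 1 RPKM or more in at least 3 libraries (110 residual degrees of freedom), with Benjamini-Hochberg adjustment over all of them. The fit was tested on simulated data. Ratios and sugar were compared with exact permutation tests in SciPy 1.17.1. The alternatives tried were a pseudocount of 0.1, no filter on low values, quantile normalization, no intensity trend, the sugar content as a covariate, plot means, a replicate block, and fits without single replicates, days or libraries.

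The members and the pathway lists were chosen with earlier results of these data known. Genes are named by this rule: the 10 listed gene models, the 3 others most like each, the 2 largest changes each way in the pathway lists, and list members called for thinning. Pathway IDs were entered from general knowledge. Cell type markers and promoter motifs were not used here, since neither the table nor the reference annotates the IDs.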

Additional observations from a re-analysis of the deposited data

Results flagged for a closer look

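The change of MYBA1 (VIT_02s0033g00410) between day 21 and the green stage differed between seasons in a test of the difference itself: it was smaller in 2014 than in 2012 by -1.0042 on the log2(RPKM + 1) scale (SE 0.38, limma adjusted p = 0.0316), just past the size of 1 set for a call. The call was lost with a pseudocount of 0.1, without any 1 of the 3 replicate numbers, and without the 50% replicates 1 and 2 of day -18 of 2012, with values from -1.24 to -0.61 over all alternatives. In the same comparison 1 of the 10 gene models was called, against 6.19% of all gene models. Day 21 held 12.97 to 16.0 RPKM in 2014 and 21.7 to 38.7 RPKM in 2012, without overlap, and the 6 green libraries of 2014 were all listed at 0. Those of 2012 held 0 to 0.203 RPKM. The value therefore largely repeats the day 21 difference between these seasons and is not a separate result.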

How the results depend on the processing

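Of 398 recomputed counts of called gene models in 35 comparisons, 361 stayed within 1.5 times the reported count, 26 were lower and 11 higher; of 1610 recomputed single values, 1500 kept their direction and side of the threshold and 21 changed sign. The causes of the changes below were not tested. After quantile normalization the count was 1 for the late stage against the veraison stage, 2 for the ripening change between 2014 and 2012, 1 for 2013 against 2012 on day 0 and at the veraison stage (the same days), 1 for 2014 against 2012 at the veraison stage, 0 at the late stage, and 2 before veraison of 2013. With a pseudocount of 0.1 the ripening change between 2014 and 2012 had 0. Before veraison the thinning count was 2 with no filter, 0 on plot means, and 0 when 1 of the 3 first-rise days (day -9 in 2012, -7 in 2013 and -6 in 2014) was left out; before veraison of 2013 it was 2 with sugar as a covariate, 0 on plot means and 0 without day -7 of 2013. Without the second 75% library of day 0 of 2012, the late stage against the veraison stage had 1.

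Leaving out 1 replicate number gave 1 to 2 calls for the late stage against the veraison stage, 0 to 1 for the ripening change between 2014 and 2012, for 2013 against 2012 on day 0 and at the veraison stage, and for thinning in 2012, 1 to 3 for day 21 of 2014 against 2012, 0 to 6 before veraison, 0 to 6 before veraison of 2013, 0 to 6 and 0 to 5 for the phase differences against before veraison (day 0 to 14 and day 21 to harvest), and 0 to 7 on day -7 of 2013.

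These single values changed sign, none of them a called one. AnthoMATE VIT_16s0050g00930 had 0.16 in ripening after quantile normalization. From day 21 to the late stage UFGT had -0.0285 after quantile normalization and -0.0429 to 0.17 with a replicate left out, and 3AT -0.0647 to 0.0823. From the veraison to the late stage anthoMATE VIT_16s0050g00910 had -0.049 to 0.20. For thinning before veraison MYBA1 had -0.41 to 0.11, 3AT -0.25 to 0.0255, and anthoMATE VIT_16s0050g00930 -0.0562 to 0.0307, or 0.0132 without the 50% replicates 1 and 2 of day -18 of 2012, 0.0081 when day -7 of 2013 was left out and 0.0148 when day -9 of 2012 was. Before veraison of 2013 MYBA1 had -0.50 to 0.0364 and anthoMATE VIT_16s0050g00930 -0.0576 to 0.0628, and without day -7 AOMT VIT_01s0010g03490 had 0.0441, anthoMATE VIT_16s0050g00930 0.0307 and anthoMATE VIT_16s0050g00910 0.0075. On day -7 of 2013 MYBA1 had -1.12 to 0.45.

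Libraries of the same replicate number did not, as a rule, deviate together. Over 78 pairs of 75% and 50% libraries of the same day and number, the median r of their deviations was -0.00805. Of these pairs 20 exceeded 0.1, and the highest r was 0.612. Pairs of different numbers were not compared, so pairing on single days was not tested. Over 147 pairs of successive days of the same thinning level and number the median was 0.0146 and 35 exceeded 0.1, among them all 3 of a set at day 11 of 2012 (0.357, 0.66 and 0.429). With the replicate number as a block, 9 gene models were still called in ripening and no call changed. Read depth is unknown, so the precision of low values is too.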
